A study of Mus musculus with 64 samples.

Results

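The genes examined here are 7 neighbors on mouse chromosome 8, Sorbs2, Pdlim3, Ufsp2, Ankrd37, Lrp2bp, Snx25, and Cfap97, out of 55401 genes in the count table. They were selected because Sorbs2 and Lrp2bp were lower in HIF1α KO muscle, and the other 5 were taken for their position beside them. The genotype difference of Sorbs2 and Lrp2bp is therefore given as a description without a test, whereas the 5 genes taken by position, and all time-of-day, exercise, and sex comparisons, were tested. The question was whether the lower level of Sorbs2 and Lrp2bp extended over the neighborhood.

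Gastrocnemius muscle was taken from HIF1α KO mice, in which Cre under the human α-skeletal actin promoter (HSA-Cre) recombines a floxed Hif1a allele with loxP sites around exon 2, and from fl/fl littermates without Cre, here the controls. Deletion is thus directed to muscle fibers, and the other cells of the muscle keep the gene. Cre is present in every HIF1α KO mouse and in no fl/fl mouse. Loss of HIF1α therefore cannot be told apart here from Cre itself or from DNA inherited with it. All mice carried the floxed allele, were 12 to 18 wk old, and came from lines crossed to C57BL/6JBomTac for 2 to 9 generations. Exercised mice ran on a treadmill (60 min in all, 16 m/min, 5% incline) and sedentary mice had a sham treatment, both at zeitgeber time 3 (ZT3, light phase) or ZT15 (dark phase), with muscle taken 3 h later. Genotype, time, and treatment gave 8 groups of 8 mice with 4 of each sex, except 7 exercised HIF1α KO mice at ZT3, because the library of mouse 44 had almost no reads and was left out. Counts of 63 libraries, 32 fl/fl and 31 HIF1α KO, were analyzed.

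SORBS2 and PDLIM3 are adaptor proteins of the muscle Z-disc and actin cytoskeleton, the structure that anchors thin filaments and carries force between sarcomeres. ANKRD37 is a small ankyrin repeat protein whose gene is a known transcriptional target of HIF1, a factor that binds a short core motif in the DNA near its targets when oxygen is low. UFSP2 is a protease that matures and removes the ubiquitin-like modifier UFM1, SNX25 is a sorting nexin, LRP2BP was named for binding the endocytic receptor megalin, and CFAP97 was named for its link to cilia.

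The 7 genes lie between 45507788 and 46195590 on chromosome 8 of GRCm38 (mm10), an interval of 687803 bp. On the plus strand are Sorbs2 (ENSMUSG00000031626.18, 45507788 to 45827906), Pdlim3 (ENSMUSG00000031636.7, 45885461 to 45919548), Ufsp2 (ENSMUSG00000031634.13, 45975528 to 45996958), Lrp2bp (ENSMUSG00000031637.13, 45999303 to 46029477), and Cfap97 (ENSMUSG00000031631.15, 46151771 to 46195590). On the minus strand are Ankrd37 (ENSMUSG00000050914.16, 45996902 to 46005707) and Snx25 (ENSMUSG00000038291.16, 46033261 to 46152159). All 7 are protein coding. Ankrd37 and Lrp2bp share 349 bp of exon on opposite strands in GENCODE M21, which is 22.7% of the exonic length of Ankrd37 and 8.05% of that of Lrp2bp. Ankrd37 and Ufsp2 share 57 bp, and Snx25 and Cfap97 share 132 bp. The strand setting of the counting is not given in the sources used here, so reads from these shared stretches cannot be assigned to 1 gene with certainty.

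The promoter sequences of Ankrd37, Lrp2bp, and Ufsp2 are shown because the gene body of Ankrd37 overlaps those of both others. Ankrd37 and Lrp2bp were lower in HIF1α KO mice, whereas Ufsp2 did not pass the test. Each line gives the 250 bases before the RefSeq transcription start (GRCm38.p6), 5′ to 3′ on the gene's own strand, with matches to the HIF core motif letters ACGTG or GCGTG on either strand in capitals.
Ankrd37 (chr8:45999851-46000100, minus strand): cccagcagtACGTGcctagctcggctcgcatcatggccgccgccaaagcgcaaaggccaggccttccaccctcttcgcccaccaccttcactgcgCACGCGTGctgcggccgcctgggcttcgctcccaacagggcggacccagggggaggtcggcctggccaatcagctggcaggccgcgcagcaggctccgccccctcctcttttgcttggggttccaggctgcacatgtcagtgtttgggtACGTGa
Lrp2bp (chr8:46010352-46010601, plus strand): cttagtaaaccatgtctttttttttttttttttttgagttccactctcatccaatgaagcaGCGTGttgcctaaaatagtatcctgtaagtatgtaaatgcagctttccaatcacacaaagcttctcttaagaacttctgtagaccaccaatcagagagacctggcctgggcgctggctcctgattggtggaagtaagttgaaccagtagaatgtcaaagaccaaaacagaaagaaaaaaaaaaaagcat
Ufsp2 (chr8:45975278-45975527, plus strand): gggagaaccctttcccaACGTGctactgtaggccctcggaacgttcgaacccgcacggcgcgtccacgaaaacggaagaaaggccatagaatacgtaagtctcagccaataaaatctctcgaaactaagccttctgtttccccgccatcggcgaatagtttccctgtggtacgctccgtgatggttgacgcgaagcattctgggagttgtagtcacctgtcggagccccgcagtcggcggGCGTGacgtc
The Ankrd37 window held 4 matches, of which a GCGTG and its opposite-strand form overlap in a single capital run, the Ufsp2 window held 2, and the Lrp2bp window held 1. The 3 Sorbs2 windows, the Pdlim3 window, and the 2 Snx25 windows held 0. At least 1 match was present in 38.6% of the 32851 mouse promoter windows of this length, and at least 2 in 16.7%, so a match is a description of the letters and not a site. The RefSeq start of Ankrd37 is at 45999850, that of Lrp2bp at 46010602, and that of Ufsp2 at 45975528. The GENCODE bodies of Ankrd37 and Lrp2bp reach farther out and overlap, with that of Lrp2bp starting at 45999303. The Ankrd37 window thus lies inside the Lrp2bp body, and the printed Lrp2bp window does not cover this other start. The match counts therefore do not contrast all promoters of these genes.

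Per length of annotated exon, Pdlim3 was the most abundant of the 7 at 84.2 ± 16.0 RPKM (reads scaled by exon length and library size, SD, n = 63). Ufsp2 followed at 8.06 ± 1.49, Cfap97 at 3.20 ± 0.444, Sorbs2 at 2.53 ± 0.830, Snx25 at 1.72 ± 0.280, Ankrd37 at 0.951 ± 0.498, and Lrp2bp at 0.616 ± 0.377 RPKM. Pdlim3 and Ufsp2 stood apart from the genes beside them in this order, whereas the mean ± SD ranges of Cfap97 and Sorbs2, Sorbs2 and Snx25, Snx25 and Ankrd37, and Ankrd37 and Lrp2bp overlapped. Sorbs2 has 27851 bp of exon over all its transcripts, so its level per length depends on which of them muscle uses, which gene counts do not show. Ankrd37 and Lrp2bp rested on few reads, 2 to 108 counts (median 21) and 5 to 244 counts (median 32) per library.

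Total counts per library ranged from 2359780 to 40377963 (median 16236352). Hif1a itself was at 28.8 to 49.7 CPM (counts scaled by library size, median 35.95) in HIF1α KO and 25.9 to 57.3 CPM (median 34.96) in fl/fl mice, and the log2 fold change was 0.00417 (adjusted p = 0.979). The table counts reads over the whole gene, including exons outside the deleted one, and these counts do not check the labels. The authors reported lower Hif1a transcript in quadriceps muscle of HIF1α KO mice, in a measurement that is not part of these counts. The summed level of 8 fast-fiber markers was 93543.6 to 166209 CPM over all mice.

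Sorbs2 was lower in HIF1α KO mice in all 4 combinations of time and treatment. In sedentary mice at ZT3 the lowest, median, and highest values were 48.6, 76.0, and 111 CPM in fl/fl and 43.95, 47.9, and 82.0 CPM in HIF1α KO mice. In those at ZT15 they were 45.3, 87.8, and 105 CPM against 45.5, 51.1, and 73.7 CPM. The ranges overlapped at both times, with the HIF1α KO medians near the lowest fl/fl mice. In exercised mice the values were 63.9, 91.9, and 118 CPM in fl/fl and 41.4, 52.4, and 71.7 CPM in HIF1α KO at ZT3. At ZT15 they were 54.7, 81.8, and 130 CPM against 44.6, 51.6, and 80.2 CPM. All 31 HIF1α KO mice were below the fl/fl median of 82.9 CPM, and 7 were below the lowest fl/fl mouse. Averaged over the combinations, Sorbs2 was 34.97% lower (log2 fold change −0.62, SE 0.0697), with single values of −0.56, −0.56, −0.79, and −0.57 in the order above.

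Lrp2bp showed the larger difference on a much lower level. In sedentary mice at ZT3 it was at 1.26, 2.76, and 4.37 CPM (lowest, median, highest) in fl/fl and 0.957, 1.65, and 2.55 CPM in HIF1α KO mice. In sedentary mice at ZT15 it was at 2.11, 3.49, and 6.71 CPM against 0.861, 1.32, and 2.16 CPM. At ZT15 the ranges thus met only at their ends. In exercised mice at ZT3 it was at 1.504, 4.27, and 8.53 CPM against 0.688, 1.24, and 2.03 CPM. In exercised mice at ZT15 it was at 1.93, 2.83, and 5.86 CPM against 1.44, 1.80, and 4.75 CPM, with broad overlap. Of the 31 HIF1α KO mice, 30 were below the fl/fl median of 3.19 CPM and 11 below the lowest fl/fl mouse. The average difference was 55.1% (log2 fold change −1.16, SE 0.144), and the single values were −0.84, −1.55, −1.74, and −0.49 in the same order.

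Ankrd37 was the single gene of the 5 chosen by position that passed the test in the averaged genotype comparison, where 8.26% of all 15241 tested genes were called at an adjusted p under 0.1 and 3.58% of all tested genes were called lower in HIF1α KO. In sedentary mice it was at 1.10, 1.72, and 4.41 CPM in fl/fl and 0.487, 1.32, and 1.67 CPM in HIF1α KO at ZT3. At ZT15 it was at 0.239, 1.29, and 3.06 CPM against 0.335, 1.28, and 2.18 CPM, and here the medians were alike. In exercised mice it was at 0.785, 1.65, and 3.31 CPM against 0.898, 1.32, and 1.66 CPM at ZT3. At ZT15 it was at 0.823, 1.47, and 2.89 CPM against 0.416, 0.685, and 1.95 CPM. The genotypes overlapped in every combination, with 23 of 31 HIF1α KO mice below the fl/fl median of 1.52 CPM and 0 below the lowest fl/fl mouse, while 8 fl/fl mice were above the highest HIF1α KO mouse. The mean was 1.74 ± 0.883 CPM (SD, n = 32) in fl/fl and 1.18 ± 0.494 CPM (SD, n = 31) in HIF1α KO mice. The log2 fold change was −0.56 (SE 0.161, 95% CI −0.89 to −0.24, adjusted p = 0.0271 by edgeR's quasi-likelihood test). As 22.7% of its exonic length is shared with Lrp2bp, the part of shared reads in this difference was not tested.

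**Figure D1:**
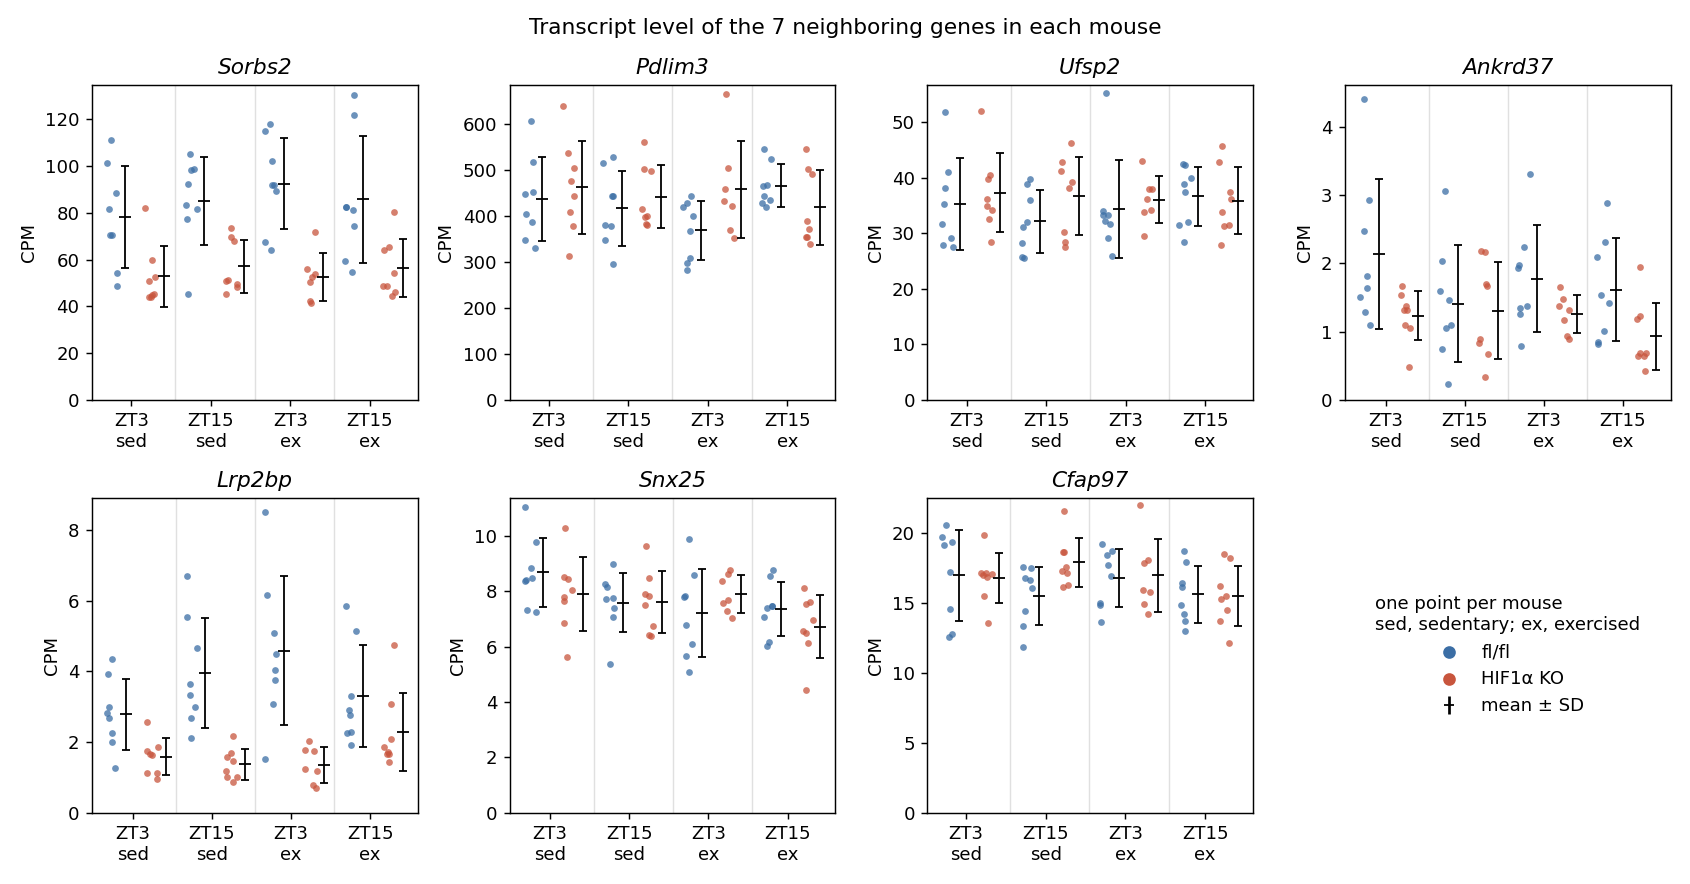
Transcript level in CPM (y axis from 0) of the 7 genes in each mouse, by time, treatment, and genotype, with the mean ± SD of each group. Sorbs2 and Lrp2bp sit lower in HIF1α KO mice in all 4 combinations, Ankrd37 overlaps widely, and the other 4 genes show no shift common to the combinations.

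The remaining 4 genes did not pass. Pdlim3, whose protein binds α-actinin, was at 422 ± 77.9 CPM (SD, n = 32) in fl/fl and 445 ± 86.8 CPM (SD, n = 31) in HIF1α KO mice, a log2 fold change of 0.08 (95% CI −0.05 to 0.21, adjusted p = 0.514). Its group medians were 426 and 461 CPM in sedentary mice at ZT3, 413 and 408 at ZT15, 384 and 433 in exercised mice at ZT3, and 455 and 381.6 at ZT15, fl/fl first. These medians did not shift in 1 direction. Ufsp2 was at 34.6 ± 7.02 CPM (SD, n = 32) and 36.5 ± 5.99 CPM (SD, n = 31), a log2 fold change of 0.08 (95% CI −0.05 to 0.21, adjusted p = 0.540). Its medians in the same order were 33.4 and 35.5, 31.5 and 38.6, 32.7 and 36.1, and 38.1 and 34.99 CPM.

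Snx25 was at 7.72 ± 1.32 CPM (SD, n = 32) in fl/fl and 7.53 ± 1.16 CPM (SD, n = 31) in HIF1α KO mice, with a log2 fold change of −0.04 (95% CI −0.16 to 0.08, adjusted p = 0.754). Its group medians were between 6.75 and 8.44 CPM. Cfap97 was at 16.3 ± 2.40 CPM (SD, n = 32) and 16.8 ± 2.17 CPM (SD, n = 31), with a log2 fold change of 0.05 (95% CI −0.06 to 0.15, adjusted p = 0.664), and its group medians were between 15.4 and 18.2 CPM. None of these 4 intervals reached the upper end of the Ankrd37 interval, at −0.24. Among the 7, the lower genes were therefore not contiguous. Pdlim3 and Ufsp2 lay between Sorbs2 and the Ankrd37 and Lrp2bp pair, and Snx25 and Cfap97 lay on its far side.

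In single combinations of time and treatment, 0 of the 5 genes chosen by position were called. The share of all genes called was 0.4% in sedentary mice at ZT3, 0.0459% in sedentary mice at ZT15, 1.43% in exercised mice at ZT3, and 0.4% in exercised mice at ZT15, so few genes of any kind passed there. At an unadjusted p under 0.05, Ankrd37 was lower in sedentary mice at ZT3 (log2 fold change −0.78, adjusted p = 0.550) and in exercised mice at ZT15 (−0.73, adjusted p = 0.591), and Pdlim3 was higher in exercised mice at ZT3 (0.31, adjusted p = 0.229). The Ankrd37 value was −0.16 in sedentary mice at ZT15 and −0.59 in exercised mice at ZT3. DESeq2's Wald test called 90, 16, 483, and 89 genes in the 4 combinations and also 0 of these 5.

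Beyond the 7 genes, 98 annotated genes lay in the interval or within 2 Mb on either side, and 26 had enough reads to be tested. Of these, 3 were lower in HIF1α KO and 0 higher, a share of 11.5% beside 8.26% called, and 3.58% called lower, of all tested genes. Gm45457, an unconfirmed transcript model on the plus strand inside a Sorbs2 intron (45779228 to 45782316), was at 3.33 ± 1.43 CPM in fl/fl and 2.08 ± 0.951 CPM in HIF1α KO mice (log2 fold change −0.64, SE 0.139, adjusted p = 0.00207). It lies on the Sorbs2 strand, so reads from unspliced Sorbs2 RNA and from a separate transcript cannot be told apart. The share of 11.5% counts it as a gene of its own. 1700029J07Rik, just before Ufsp2 on the minus strand (45953606 to 45975252), was lower by a smaller amount (−0.27, SE 0.0914, adjusted p = 0.0731). Fat1, a protocadherin gene on the Sorbs2 side of the interval (44935447 to 45052257), was also lower (−0.26, SE 0.0815, adjusted p = 0.0525).

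The nearest tested gene before Sorbs2, Tlr3 (45395665 to 45411080), was at −0.21 on the log2 scale (adjusted p = 0.190). The nearest after Cfap97, Slc25a4, the muscle ADP/ATP carrier (46206797 to 46211284), was at 0.11 (adjusted p = 0.280). On the Cfap97 side 0 of 19 tested genes were called, and their median log2 fold change was −0.03. On the Sorbs2 side 1 of 4 was called, 3 of the 4 were negative, and the median was −0.16. Inside the interval 2 of the 3 tested genes other than the 7 were called lower, all 3 were negative, and the median was −0.27. The 2 called include Gm45457, whose reads may come from Sorbs2, a gene selected for being lower. Of 14 annotated genes inside the interval that are not among the 7, 11 had too few reads to test. These include Sorbs2os, antisense to Sorbs2 over 1051 bp of exon, with 51 counts in 63 libraries (26 in fl/fl, 25 in HIF1α KO), Gm15634 with 52 counts (18 and 34), Gm45693 with 11 counts (11 and 0), Ccdc110 with 5, Gm16351 with 3, and Gm25309 with 2. Gm45458, Gm15878, Gm23030, and both copies of Gm23604 had 0 counts. The third tested one, Gm45512 after Pdlim3, was at −0.24 (adjusted p = 0.309).

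**Figure D2:**
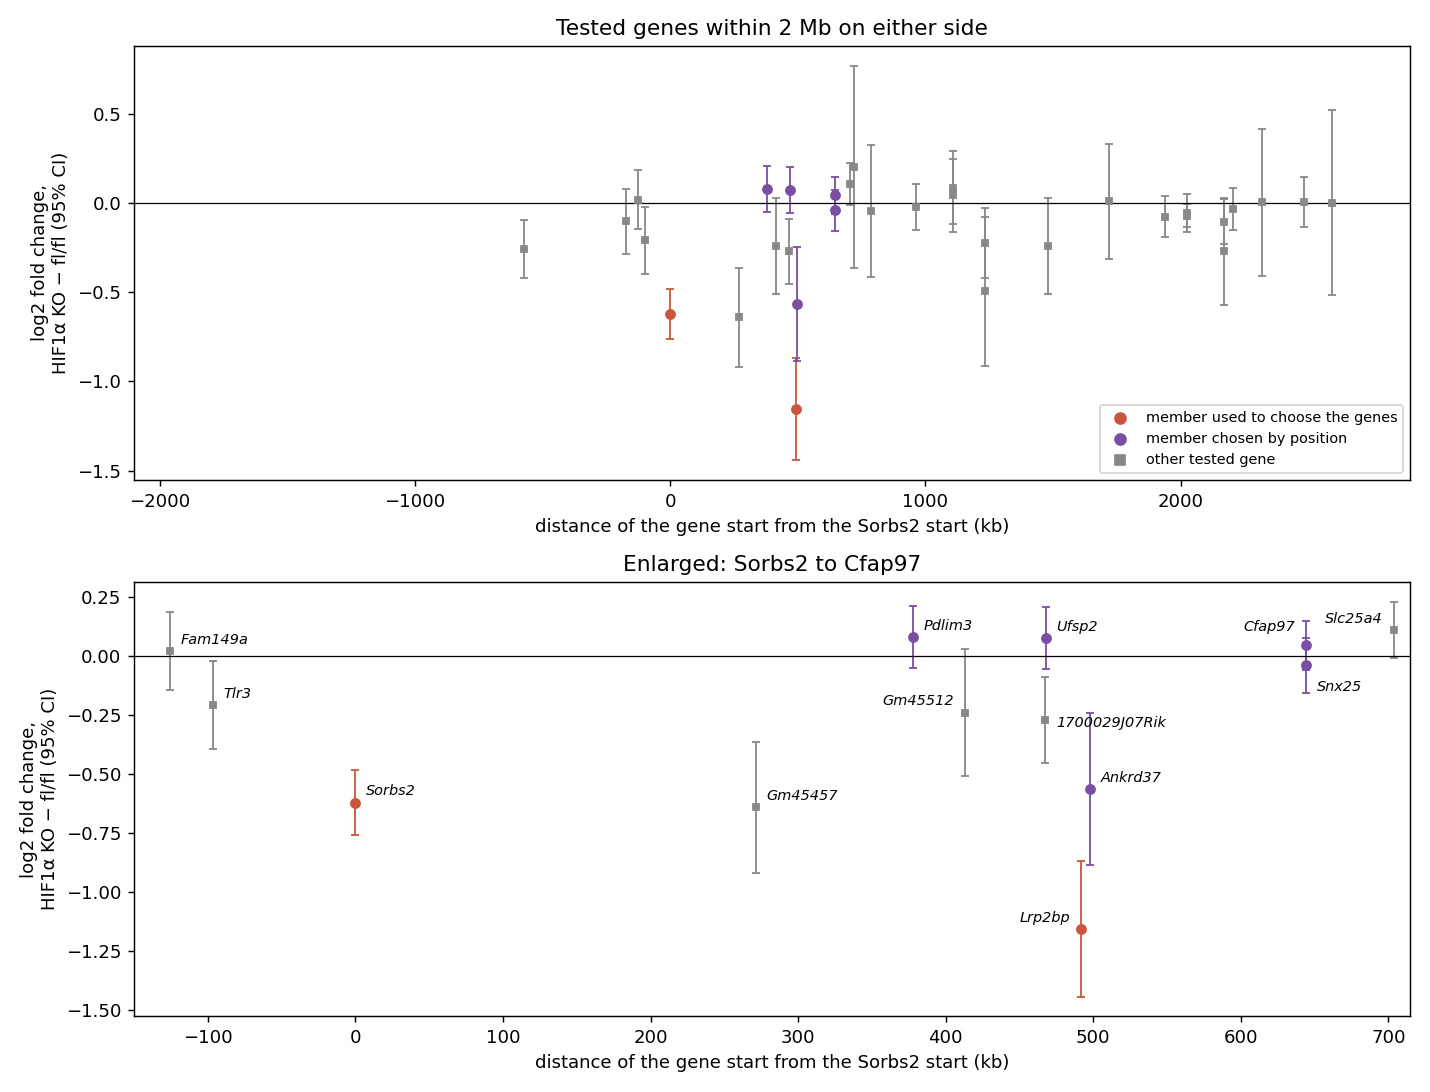
Log2 fold change of HIF1α KO over fl/fl with its 95% CI for each tested gene, against the distance of the gene start from the Sorbs2 start in kilobases, over the whole window above and enlarged below. Sorbs2 (−0.62), Gm45457 (−0.64), Ankrd37 (−0.56), and Lrp2bp (−1.16) lie below zero. Between them are Pdlim3 (0.08) and Ufsp2 (0.08) and also the lower 1700029J07Rik (−0.27) and Gm45512 (−0.24), and before Sorbs2 are Fat1 (−0.26) and Tlr3 (−0.21).

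Genes that share a role with the 7 were counted in the same comparison, beside the 8.26% called of all genes and a median log2 fold change of −0.00277 over all genes. Of 30 Z-disc genes, 0 were lower and 1 was higher, the PDZ and LIM domain gene Pdlim7 (0.18, adjusted p = 0.0341), with a median of −0.02. Sorbs3, a paralog of Sorbs2, had −0.12 (adjusted p = 0.658). Of 7 UFM1 pathway genes and of 3 sorting nexins related to Snx25, 0 passed, with medians of −0.03 and 0.00374. Of 30 HIF1 target genes other than Ankrd37, 4 were lower and 2 were higher, with a median of −0.03. Among the lower were the MYC antagonist Mxi1 (−0.14, adjusted p = 0.0258), the glycolytic phosphofructokinase Pfkl (−0.25, adjusted p = 0.0684), and the carbonic anhydrase Car9 (−0.53, adjusted p = 0.0785), all by edgeR. Car9 rested on few reads, at 0.738 ± 0.373 CPM in fl/fl and 0.524 ± 0.322 CPM in HIF1α KO mice (SD).

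Some markers of other cells in the muscle were called as well, in short lists, beside 8.26% called of all genes. Of 4 Schwann cell markers 2 were lower in HIF1α KO, among them the myelin gene Mbp (−0.44, adjusted p = 0.0338), and the summed level of the list ranged from 33.6 to 152 CPM in fl/fl and from 29.4 to 133 CPM in HIF1α KO mice. Of 3 smooth muscle markers 2 were lower, Myh11 (−0.26, adjusted p = 0.0838) and Acta2 (−0.18, adjusted p = 0.0889), with sums from 91.0 to 182 CPM and from 87.7 to 184 CPM. Pdgfra of the 5 fibro-adipogenic markers was lower (−0.12, adjusted p = 0.0731 by edgeR). Myf5 of the 3 satellite cell markers was higher (0.35, adjusted p = 0.0961 by edgeR). It was at only 1.43 ± 0.523 CPM in fl/fl and 1.88 ± 0.610 CPM in HIF1α KO mice (SD), and Pax7 and Chodl did not pass. Of the fast-fiber, slow-fiber, endothelial, immune, adipocyte, and blood markers, 0 passed. The part of the other cells in the values of the 7 genes was not tested. In whole muscle, fewer cells of a type and less RNA per cell cannot be told apart.

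The labels name no batch, so the genotypes were also compared within the 4 blocks of 16 consecutive mouse numbers. There, the log2 fold change of Sorbs2 was −0.32 (SE 0.134), −0.47 (SE 0.133), −0.66 (SE 0.137), and −0.96 (SE 0.134), lower in each but of unequal size (p of the difference between blocks 0.00638 by edgeR, 0.841 after adjustment over all genes). That of Lrp2bp was −1.11, −1.48, −0.45, and −1.41, with SEs of 0.286 to 0.325. That of Ankrd37 was −0.52, −0.79, −0.24, and −0.86, with SEs of 0.304 to 0.362. All 3 were thus lower in each of the 4 blocks. For Sorbs2 and Lrp2bp this only describes the mice in which they were selected as lower, and adds no support. For Ankrd37 the blocks hold the same mice as its test above and are no replication. In mice 33 to 48 its SE of 0.362 was larger than its difference of −0.24. The difference between blocks did not pass for Lrp2bp or Ankrd37 (adjusted p = 1 for both).

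**Figure D3:**
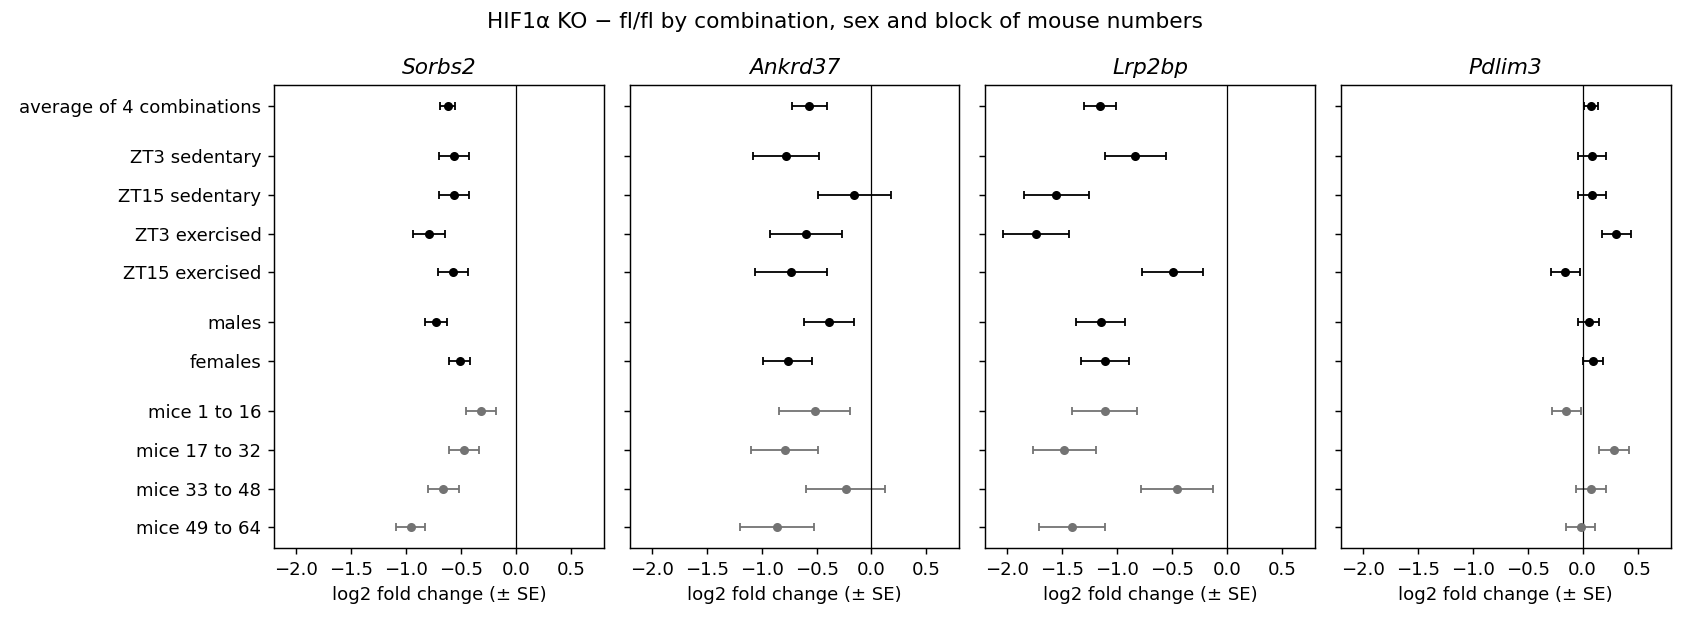
Log2 fold change of HIF1α KO over fl/fl (x axis, ± SE) for Sorbs2, Ankrd37, Lrp2bp, and Pdlim3 on average, in each combination of time and treatment, in each sex, and in each block of 16 mouse numbers (gray). Block values come from a single fit to all mice, not from each block alone. The points of Sorbs2, Ankrd37, and Lrp2bp lie below zero in every row, and those of Pdlim3 lie on both sides.

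Sorbs2 also differed by sex, a comparison that played no part in its selection. Fl/fl males were at 70.6, 99.9, and 130 CPM (lowest, median, highest, n = 16) and fl/fl females at 45.3, 73.8, and 92.2 CPM (n = 16). HIF1α KO males were at 45.5, 55.97, and 82.0 CPM (n = 15) and HIF1α KO females at 41.4, 47.3, and 80.2 CPM (n = 16). Females were thus lower in both genotypes, with overlapping ranges. The log2 fold change of females over males was −0.37 (SE 0.0694, adjusted p = 3.14e-05 by edgeR), in a comparison where 25.1% of all genes were called. The other 6 genes did not pass, with log2 fold changes from −0.07 for Ufsp2 to 0.23 for Ankrd37 (adjusted p = 0.482 and 0.344).

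The genotype difference of Sorbs2 was −0.73 (SE 0.0972) in males and −0.51 (SE 0.0957) in females, and the difference between them was 0.21 (95% CI −0.06 to 0.49, adjusted p = 0.543). For Lrp2bp it was −1.15 in males and −1.11 in females, and for Ankrd37 it was −0.39 and −0.76 (adjusted p of the difference 0.979 and 0.653). Of the 7 genes, 0 passed for genotype by sex, where 0.0525% of all genes were called, and 0 of the 7 had an unadjusted p under 0.05.

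**Figure D4:**
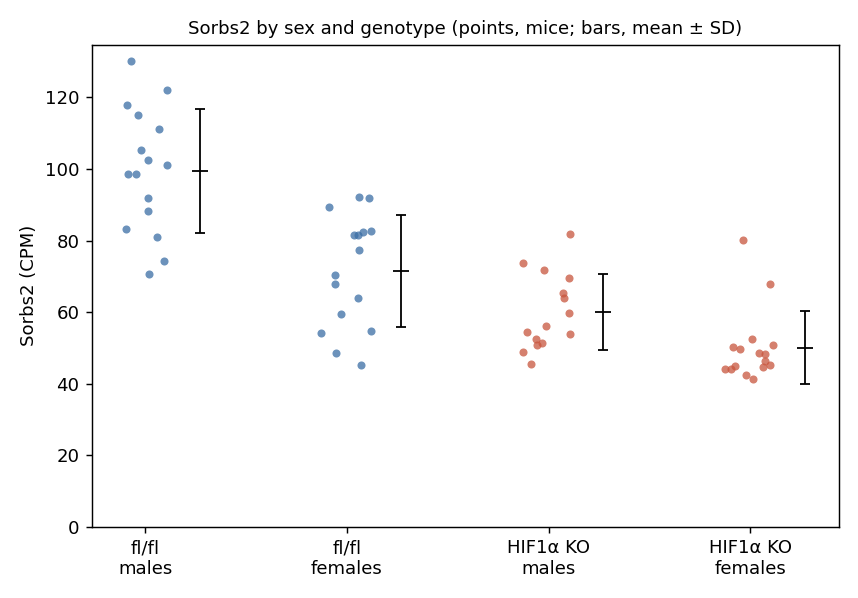
Sorbs2 level (CPM, y axis from 0) in each mouse by genotype and sex, with the mean ± SD. In both genotypes the males' mean, 99.5 CPM in fl/fl and 59.9 CPM in HIF1α KO, is above the females', 71.5 and 50.05 CPM.

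None of the 7 genes passed the test for time of day. Averaged over genotype and treatment, 8.02% of all genes were called between ZT15 and ZT3, and 0 of the 7 by edgeR and by DESeq2, nor did any have an unadjusted p under 0.05. The log2 fold changes ran from −0.29 for Ankrd37 (95% CI −0.61 to 0.03, adjusted p = 0.361) to 0.15 for Lrp2bp (95% CI −0.14 to 0.43, adjusted p = 0.648), and that of Sorbs2 was 0.06 (95% CI −0.08 to 0.20, adjusted p = 0.704). Within single groups 0 of the 7 passed either, where 1.88% of genes were called in sedentary fl/fl, 0.479% in sedentary HIF1α KO, 1.18% in exercised fl/fl, and 0.663% in exercised HIF1α KO mice. At an unadjusted p under 0.05, Pdlim3 was higher at ZT15 in exercised fl/fl mice (0.34, adjusted p = 0.260) and Lrp2bp in exercised HIF1α KO mice (0.77, adjusted p = 0.335). Of the 30 Z-disc genes 2 were higher at ZT15 and 1 lower. Of the 30 HIF1 targets 3 were higher and 2 lower, led by Pfkfb3, an enzyme that drives glycolytic flux (−1.88, adjusted p = 4.43e-15).

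Exercise likewise left the 7 genes without a call. Averaged over genotype and time, 2.84% of all genes were called and 0 of the 7 by edgeR and by DESeq2, nor did any have an unadjusted p under 0.05. The log2 fold changes ran from −0.11 for Snx25 (95% CI −0.23 to 0.01, adjusted p = 0.511) to 0.24 for Lrp2bp (95% CI −0.05 to 0.52, adjusted p = 0.593). Within single groups, 0.236% of genes were called in fl/fl mice at ZT3, 0.131% in HIF1α KO at ZT3, 0% in fl/fl at ZT15, and 0.0591% in HIF1α KO at ZT15, and none of the 7. Lrp2bp had an unadjusted p under 0.05 in fl/fl mice at ZT3 (0.68, adjusted p = 0.278) and in HIF1α KO mice at ZT15 (0.77, adjusted p = 0.742). In the same mice 7 of 30 Z-disc genes were higher after exercise and 0 lower, led by the stretch-responsive genes Xirp1 (0.85, adjusted p = 0.00253), Ankrd2 (0.56, adjusted p = 0.00300), and Csrp3 (0.66, adjusted p = 0.00478). Sorbs2 was at 0.07 (95% CI −0.07 to 0.20, adjusted p = 0.827) and Pdlim3 at −0.05 (95% CI −0.17 to 0.08, adjusted p = 0.903).

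Genotype by time and genotype by exercise called 0% and 0% of all genes by edgeR and 0 by DESeq2, with 648 and 306 genes at an unadjusted p under 0.05 and 0 of the 7 among them. For Lrp2bp, whose values in single combinations were the most uneven, the difference of genotype differences was 0.26 (95% CI −0.31 to 0.84, adjusted p = 0.981) for time and 0.08 (95% CI −0.49 to 0.65, adjusted p = 1) for exercise. For Sorbs2 it was 0.11 (95% CI −0.17 to 0.39) and −0.12 (95% CI −0.40 to 0.16), and for Ankrd37 it was 0.24 (95% CI −0.41 to 0.89) and −0.20 (95% CI −0.84 to 0.45). These contrasts average over the other factor, so opposite changes cancel in them. The genotype difference of Lrp2bp went from −0.84 at ZT3 to −1.55 at ZT15 in sedentary mice and from −1.74 to −0.49 in exercised mice. The test of genotype by time by exercise was added after this was seen, and gave Lrp2bp a difference of 1.96 (95% CI 0.82 to 3.11, adjusted p = 0.262 by edgeR, unadjusted 0.00111). In it 0% of all genes were called, with 2196 at an unadjusted p under 0.05 and Lrp2bp the only one of the 7 among them, and DESeq2 called 1 gene, which was none of the 7.

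Whether the genes varied together from mouse to mouse was examined on log2 CPM after the group means and sex were removed. Over 42 relations, the 21 pairs in each genotype, 1 passed the Benjamini-Hochberg adjustment. Ankrd37 and Snx25 varied together in fl/fl mice (n = 32, Pearson r = 0.642, permutation p = 6e-05, adjusted p = 0.00252, Spearman rho = 0.5678, permutation p = 0.00083, adjusted p = 0.0349). Without the 2 mice farthest from the median of Ankrd37, r was 0.538, and with the blocks removed it was 0.602. In HIF1α KO mice r was 0.3695 (n = 31, permutation p = 0.0422, adjusted p = 0.251), and the difference between genotypes was not tested. Sorbs2 and Lrp2bp had r = 0.192 in fl/fl (n = 32, permutation p = 0.292, adjusted p = 0.558) and r = 0.402 in HIF1α KO mice (n = 31, permutation p = 0.0243, adjusted p = 0.245). Ankrd37 and Lrp2bp, which share exon sequence, had r = 0.337 (permutation p = 0.0605) and 0.138 (permutation p = 0.457). The shuffles test against no relation at all, whereas the points share libraries and depth. Over all 63 mice, Snx25 had r = 0.520 with Ankrd37 and 0.7104 with Prpf18, the gene most like it. How often other gene pairs reach such values was not tested. The p-values therefore do not show a relation particular to Ankrd37 and Snx25. Ankrd37 also had only 2 counts in each of fl/fl mice 8, 41, and 48.

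**Figure D5:**
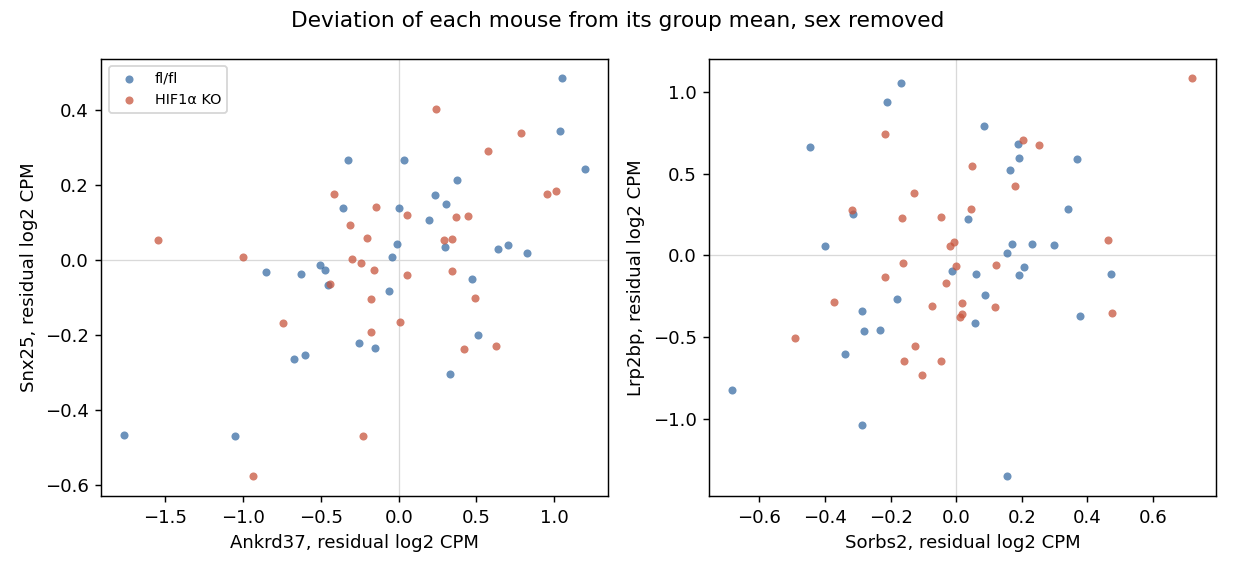
Deviation of each mouse from its group mean in log2 CPM, with sex removed, for Ankrd37 against Snx25 (left) and Sorbs2 against Lrp2bp (right). Ankrd37 and Snx25 in fl/fl mice have r = 0.642, and Sorbs2 and Lrp2bp have r = 0.402 in HIF1α KO mice and 0.192 in controls.

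Over all 15241 genes, those whose deviations over the 63 mice were most like each of the 7 are given as a description, since the points share libraries and depth. For Sorbs2 they were Psd3 (r = 0.683), Ppp2r3a (0.659), and 9930021J03Rik (0.651), and for Lrp2bp they included the integrin gene Itga4 (0.528) and Pitpna (0.521). For Ankrd37 they were Aspa (0.653), B3galnt2 (0.596), and Nat1 (0.576). For Pdlim3 they were Psmd8 (0.715), Art3 (0.689), and Asph (0.683), and for Ufsp2 they were Pfdn5 (0.862), Mrpl51 (0.854), and Swi5 (0.839). For Snx25 they were Prpf18 (0.7104), Cr1l (0.707), and Dap3 (0.707), and for Cfap97 they were Rnf14 (0.706), Pdp1 (0.699), and Aldh6a1 (0.684). None of the 7 had another of the 7 among its 3 most alike genes.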

How the data were processed

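Poly-A RNA of gastrocnemius muscle was sequenced as paired 52-bp reads from stranded libraries. Per the labels, the authors used STAR for alignment (mm10) and featureCounts for counting. The counts are as deposited, whole numbers without scaling or filtering. Versions, annotation release, strand setting, and handling of shared reads are not given in the sources used here. Identifiers were matched to GENCODE M21 (55141 of 55401). Library depth is given with the results, and 1 CPM was 2.36 to 40.4 counts.

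Counts of 63 libraries were analyzed in R 4.3.3 with edgeR 4.0.16: filterByExpr (minimum count 10, 15241 genes), TMM, design of group plus sex, robust quasi-likelihood tests, Benjamini-Hochberg adjustment per comparison over all tested genes, and an adjusted p under 0.1 as the call. CPM used TMM-scaled library sizes, and log2 CPM a prior count of 2. Genotype by sex was fitted with 4 time and treatment combinations, genotype, sex, and their interaction. Correlations used 100000 shuffles, two-sided, and were added after values had been seen. Promoter sequences are from RefSeq (9 windows for 6 of the 7 genes). No pair of libraries held identical counts. The statistics were tested on simulated data.

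The 7 genes, gene lists, tests, and alternatives were chosen with earlier results of these data known. All 7 genes were named with values in every group, with the nearest tested gene on each side, called genes within 2 Mb, genes inside the interval, the 3 most alike genes of each, and at most 3 called genes of each list by smallest p. Beyond that rule, Sorbs3, Gm45512, and Hif1a, and markers called, were named after their values were seen. A few genes that the rule would name are not reported here. P-values measure the spread between mice. Alternatives were all 64 libraries, removal of libraries under 5 M counts, no sex term, blocks of 16 mouse numbers as a covariate, other count filters, an adjusted p under 0.05, RLE factors, and DESeq2 1.42.0.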

Additional observations from a re-analysis of the deposited data

Results flagged for a closer look

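In 56 sets of 7 or 8 mice (7 genes in 8 groups), 4 held a mouse set apart from the others of its group by Dixon's criterion, which chance alone meets in about 1 set in 20. For Sorbs2, HIF1α KO mouse 21 (sedentary, ZT3) was at 82.0 CPM, with the next mouse at 59.7 CPM, and fl/fl mouse 40 (sedentary, ZT15) was at 45.3 CPM, with the next at 77.3 CPM. For Ufsp2, fl/fl mouse 50 (exercised, ZT3) was at 55.2 CPM, with the next at 33.9 CPM, in a library of 5597569 counts. For Cfap97, HIF1α KO mouse 43 (sedentary, ZT15) was at 21.6 CPM, with the next at 18.7 CPM, in a library of 6537197 counts. The Sorbs2 level of mouse 21 was within the fl/fl range and that of mouse 40 within the HIF1α KO range. Their Lrp2bp levels were 1.13 and 2.11 CPM, of which the latter is within the HIF1α KO range of 0.688 to 4.75 CPM. As Lrp2bp was chosen for its genotype difference, these levels do not check the labels.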

How the results depend on the processing

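Ankrd37 was called lower in HIF1α KO under every alternative in which it could be tested (log2 fold change −0.62 to −0.56, adjusted p 0.00827 to 0.0430). A filter of at least 10 counts in every library removed Ankrd37 and Lrp2bp, and then 0 of the genes chosen by position were called. Over all mice the log2 fold changes were between −0.64 and −0.60 for Sorbs2 and between −1.17 and −1.14 for Lrp2bp. For single blocks they moved to −0.32 (mice 1 to 16) and −0.96 (mice 49 to 64) for Sorbs2 and to −0.45 (mice 33 to 48) for Lrp2bp. The cause was not tested. The log2 fold change of Sorbs2 in females over males was between −0.38 and −0.35 (adjusted p 2.72e-05 to 0.000132 by edgeR). No alternative called any of the 7 that it could test for time or exercise, averaged or within single groups, or in the interactions. The single groups and genotype by time by exercise were added to these alternatives after seeing the data. Of the 3 other genes called near them, 1 passed at an adjusted p under 0.05 (Gm45457). With 10 counts in every library Fat1 and Trappc11 were called instead, and with no filter Gm45457 and Gm45693, the latter on 11 counts. Over all genes, the averaged genotype calls were 1259, against 778 with no filter and 695 at an adjusted p under 0.05. With the block as a covariate, calls were 2030 instead of 1222 for time and 669 instead of 433 for exercise, of which the cause was not tested. For single blocks, signs turned for genes that were not called. These were Pdlim3 (−0.15 in mice 1 to 16, −0.018 in mice 49 to 64), Ufsp2 (−0.059 in mice 49 to 64), Snx25 (0.089 in mice 33 to 48), and Cfap97 (−0.059 in mice 17 to 32, −0.032 in mice 49 to 64). No paired analysis was possible because each mouse has a number of its own. Depth limits Ankrd37 and Lrp2bp most, with as few as 2 and 5 counts in a library.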
